A study of Homo sapiens with 4 samples.

Results

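The genes described here are 56 protein-coding genes of distal chromosome 7q, between EXOC4 and the telomere, out of 27011 genes in the deposited count table. They were listed by name after earlier results on these data. Those had shown that mRNAs from this end of chromosome 7 were more abundant in Helz-null than in WT cells. The Helz-null over WT difference of the members is therefore given as a description. Calls at an FDR are printed for members only to describe them, not as support for the rise. Of the 56 genes, 48 were among the 10978 genes that the study compared, and 8 weakly expressed ones were not (AGBL3, TBXAS1, FAM131B, DPP6, SHH, RNF32, PTPRN2 and VIPR2).

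RNA-Seq was performed on 4 libraries of HEK293T cells, an established line from human embryonic kidney that carries the SV40 large T antigen. WT replicates 1 and 2 came from the parental cells, and Helz-null replicates 1 and 2 from cells in which Cas9, with a guide against exon 8 of helz, had left a deletion that shifts the reading frame. The methods describe a single Helz-null cell line, so the line and the loss of HELZ, a helicase that binds the CCR4–NOT deadenylase complex, cannot be told apart. Cells of both groups were untreated, and the methods call the 2 libraries of a group biological replicates without saying what was repeated, so the errors below measure the spread between these libraries.

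Library totals ranged from 41745401 to 70464140 counts, of which 97.8% fell on the compared genes, and the fitted common coefficient of variation between replicates was 2.60%. HELZ itself (chr17:65066560-65242105 on GRCh37) gave 99.8 and 103.9 CPM (counts relative to library size, scaled by TMM) in WT cells against 36.98 and 37.9 CPM in Helz-null cells, a log2FC of -1.44 ± 0.042 (SE, adjusted p = 2.13e-27 in edgeR's quasi-likelihood test). The 7 listed markers of HEK293 cells, KRT8, KRT18, VIM, NEFM, NEFL, PAX2 and LHX1, all gave counts in the 4 libraries, but not at like levels in both groups. KRT8 (27.4 and 29.98 CPM in WT against 13.9 and 14.9 CPM in Helz-null cells, log2FC -0.98), KRT18 (-0.16) and VIM (-0.14) were called down, NEFM was called up (241.0 and 230.3 against 438.6 and 434.4 CPM, 0.89), and NEFL (-0.04) was not called. PAX2 (5.19 and 5.37 against 7.07 and 6.48 CPM) and LHX1 (2.98 and 2.68 against 6.58 and 4.89 CPM), which were not among the compared genes, were higher in both Helz-null libraries. The part of these marker differences in the results below was not tested. Of 6 markers of other lineages, TYR had 0 counts and PTPRC and ALB were near 0, whereas CDX2 stood between 40.3 and 41.6 CPM in all libraries. MYOD1 (0.271 and 0.463 CPM in WT against 0.726 and 0.631 CPM) and CD34 (0.796 and 0.951 against 1.11 and 0.975 CPM) were low, and higher in both Helz-null libraries.

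Genes that neighbour each other on a chromosome usually have their own promoters and unrelated products. The level of an mRNA depends on how many copies of its gene a cell holds, how often they are transcribed and how fast the mRNA decays, and counts from bulk RNA do not separate these. Likewise, fewer cells that express a gene and less of its RNA per cell cannot be told apart here. Distal 7q is known for the limb and midline morphogen gene SHH, for the homeobox genes EN2 and MNX1, and for the regulators EZH2, BRAF, RHEB and CUL1, whose partners are encoded on other chromosomes.

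The promoters of 6 members are shown because these genes mark the extremes and the middle of the shift. Among compared members ZYX rose most, and XRCC2, TMEM140, RBM33 and CNTNAP2 were those left behind. SSBP1 was 1 of the 2 compared members on either side of the median, with REPIN1. Each window runs from 250 bases before to 50 bases after the annotated start, in the direction of the gene. The sequences are RefSeq's from GRCh38.p14 and were placed on GRCh37 by exact match, and capitals mark the GC box (GGGCGG or its complement CCGCCC). The windows are chr7:143078188-143078487 (+) for ZYX, chr7:141437871-141438170 (+) for SSBP1, chr7:155437105-155437404 (+) for RBM33, chr7:145813643-145813942 (+) for CNTNAP2, chr7:134832574-134832873 (+) for TMEM140 and chr7:152373177-152373476 (−) for XRCC2.
ZYX: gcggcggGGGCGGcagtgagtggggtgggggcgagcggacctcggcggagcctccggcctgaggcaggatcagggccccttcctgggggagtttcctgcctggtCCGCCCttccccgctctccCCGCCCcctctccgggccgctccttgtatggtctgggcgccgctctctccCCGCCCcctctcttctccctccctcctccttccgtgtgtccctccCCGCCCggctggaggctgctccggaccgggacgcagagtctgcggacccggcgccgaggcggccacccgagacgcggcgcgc
SSBP1: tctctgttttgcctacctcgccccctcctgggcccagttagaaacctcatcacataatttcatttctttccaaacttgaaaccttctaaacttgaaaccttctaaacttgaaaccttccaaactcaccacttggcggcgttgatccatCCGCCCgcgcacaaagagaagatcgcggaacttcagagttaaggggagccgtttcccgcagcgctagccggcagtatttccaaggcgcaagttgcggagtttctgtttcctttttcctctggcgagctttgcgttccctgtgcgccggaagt
RBM33: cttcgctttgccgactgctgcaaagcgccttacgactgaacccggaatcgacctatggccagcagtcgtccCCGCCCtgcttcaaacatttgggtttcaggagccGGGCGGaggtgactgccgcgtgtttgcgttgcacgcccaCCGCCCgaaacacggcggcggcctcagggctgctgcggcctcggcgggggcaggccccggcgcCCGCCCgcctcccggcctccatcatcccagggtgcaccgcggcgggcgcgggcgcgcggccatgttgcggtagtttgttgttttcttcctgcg
CNTNAP2: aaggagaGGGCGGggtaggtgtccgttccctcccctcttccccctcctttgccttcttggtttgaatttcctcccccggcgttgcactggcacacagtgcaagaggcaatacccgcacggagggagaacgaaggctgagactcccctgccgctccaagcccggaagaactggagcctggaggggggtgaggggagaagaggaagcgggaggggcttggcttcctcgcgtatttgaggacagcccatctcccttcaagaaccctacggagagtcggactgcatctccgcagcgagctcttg
TMEM140: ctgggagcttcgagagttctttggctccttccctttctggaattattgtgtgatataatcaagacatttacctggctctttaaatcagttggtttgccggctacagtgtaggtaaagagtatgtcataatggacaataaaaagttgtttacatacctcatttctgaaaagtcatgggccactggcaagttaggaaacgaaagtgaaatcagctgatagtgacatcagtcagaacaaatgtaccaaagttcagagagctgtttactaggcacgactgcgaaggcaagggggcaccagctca
XRCC2: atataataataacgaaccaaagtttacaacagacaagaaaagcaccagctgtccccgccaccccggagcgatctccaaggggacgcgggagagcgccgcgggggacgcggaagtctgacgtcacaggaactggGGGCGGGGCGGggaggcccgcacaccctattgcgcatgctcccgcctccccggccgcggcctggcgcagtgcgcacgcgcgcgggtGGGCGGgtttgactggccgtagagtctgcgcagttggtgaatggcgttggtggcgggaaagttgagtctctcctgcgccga

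The number of GC boxes did not follow the order of the log2FC values. The ZYX window held 5 GC boxes and had a GC content of 76.0%, but the windows of RBM33 and XRCC2, whose mRNAs kept close to their WT level, held 4 and 3 GC boxes at 69.0% and 65.3% GC. The SSBP1 window held 1 GC box at 51.0% GC, and CNTNAP2 held 1 at 61.7%. The TMEM140 window held none at 42.7% GC, with 5 CpG dinucleotides. Of the 56 genes, 49 had a promoter in the RefSeq table, and TRIM24, TTC26, HIPK2, KRBA1, PAXIP1, NOM1 and PTPRN2 had no entry. Counting both strands, 33 of the 49 (67.3%) held GGGCGG against 45.0% of all 35116 promoter windows, 22 (44.9%) held CCAAT against 34.6%, 1 (2.04%) held TATAAA against 11.5%, and 5 (10.2%) held CCGGAAG against 10.3%. The median member window had 65.3% GC and 29 CpG dinucleotides, against 58.7% and 14 over all windows. The 2 sets are unlike, as each member gave 1 window, whereas all windows include alternative starts and genes at any level of expression. Nothing is therefore read from these differences. These are matches of letters, and no binding was measured.

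Most of the compared members were higher in Helz-null cells, by a small and similar amount. The median log2FC of the 48 genes was 0.28, or 1.21-fold, with quartiles of 0.20 and 0.35 and a range from -0.06 to 0.59, whereas the median over all 10978 compared genes was -0.00091. Of the 48, 47 had a log2FC above 0, 42 lay within 0.2 of their median and 31 within 0.1. At an FDR under 0.005, edgeR called 40 of the 48 (83.3%) up and 0 down. Over all compared genes 13.9% were called up and 15.5% down, and as the list was drawn from this contrast nothing is read from the difference. None of the 48 was lower at an unadjusted p under 0.05, and DESeq2 called 36 up and 0 down. In 44 of the 48 genes both Helz-null libraries exceeded both WT libraries, and in 4 the groups overlapped. Over all compared genes both Helz-null libraries lay above both WT libraries in 34.9% and below them in 35.7%.

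**Figure D1:**
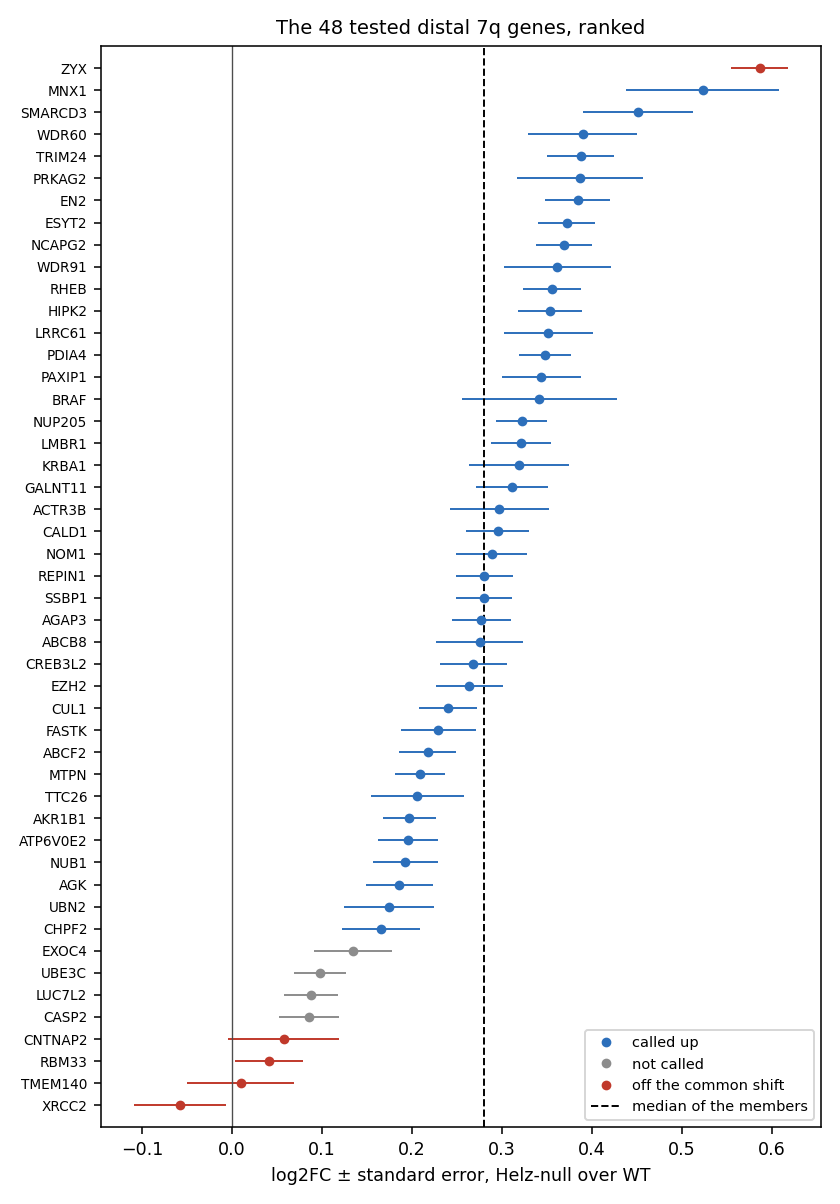
Helz-null over WT log2FC (x axis) of the 48 compared distal 7q genes (y axis), ranked, with points for the estimate and bars for its standard error. Blue points are genes called up, grey points are genes not called, red points are the 5 genes that lie off the common shift (ZYX was called up, the other 4 were not), and the dashed line marks the median of 0.28.

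The rise was present in each pairing of libraries. Helz-null replicate 1 gave a median log2 ratio of 0.29 over WT replicate 1 and 0.28 over WT replicate 2, with 45 and 47 of the 48 genes above 0. Helz-null replicate 2 gave 0.28 and 0.26, with 47 and 46 genes above 0. Between libraries of the same group the median was 0.014 for WT replicate 2 over 1 (27 of 48 above 0) and -0.0013 for Helz-null replicate 2 over 1 (24 of 48). In 44 genes the log2FC exceeded the larger of the gene's own 2 differences between replicates, whose medians were 0.050 within WT and 0.042 within Helz-null. Summed over all 56 members, WT libraries held 5388 and 5435 CPM and Helz-null libraries 6498 and 6482 CPM, 19.9% more.

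**Figure D2:**
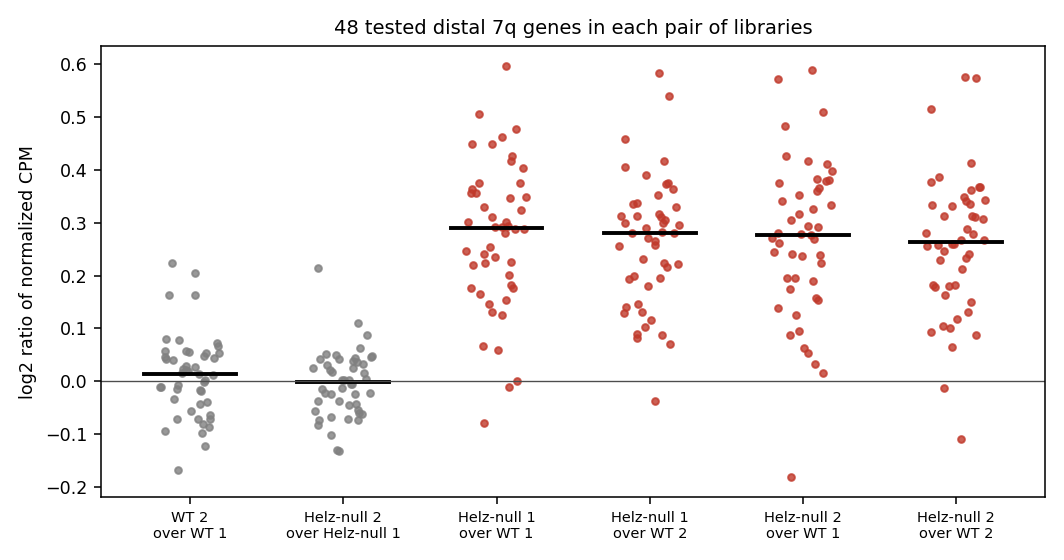
Log2 ratio of normalized CPM (y axis) for the 48 compared distal 7q genes in each of the 6 pairs of libraries (x axis), with 1 point per gene and a bar at the median. Grey points compare libraries of the same group, with medians near 0, and red points compare a Helz-null with a WT library, with medians between 0.26 and 0.29.

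All 10 members that act in transcription and chromatin were called up by edgeR, with a median log2FC of 0.33, though UBN2 was not called by DESeq2, with filterByExpr, or without WT replicate 1 or Helz-null replicate 1. MNX1, a homeobox factor of motor neurons and pancreas, stood at 10.6 and 10.1 CPM in WT and at 14.8 and 15.1 CPM in Helz-null libraries (log2FC 0.52 ± 0.085). EN2, the engrailed homeobox factor of the midbrain and hindbrain, went from 88.7 and 91.2 CPM to 115.1 and 119.3 CPM (0.38 ± 0.036). For both homeobox genes the replicates lay close together and the groups were well apart. SMARCD3, a subunit of the BAF chromatin remodeller, had 26.6 and 27.7 CPM in WT and 34.1 and 39.6 CPM in Helz-null libraries (0.45 ± 0.061). Its Helz-null replicate 2 was the higher of the pair, and its gene overlaps CHPF2 on the opposite strand, so reads of the shared stretch may count for either. TRIM24, a bromodomain coregulator of nuclear receptors, rose from 77.6 and 77.5 CPM to 103.5 and 99.6 CPM (0.39 ± 0.037). EZH2, the enzyme of Polycomb repressive complex 2 (PRC2) that methylates histone H3, rose from 74.8 and 74.2 CPM to 88.7 and 90.2 CPM (0.26 ± 0.038). Neither gene had a WT library that reached a Helz-null library. The BRCT-domain protein gene PAXIP1 (0.34), the KRAB-domain gene KRBA1 (0.32), the zinc finger gene REPIN1 (0.28), CREB3L2, which encodes a factor anchored in the ER membrane (0.27), and UBN2, of the HIRA histone chaperone complex (0.17), completed the group.

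The 6 compared signalling genes were all called up by edgeR, within a narrow range of log2FC from 0.28 to 0.39, though BRAF was not called by DESeq2, in libraries thinned to the smallest total, or without WT replicate 1 or either Helz-null replicate. PRKAG2, a regulatory subunit of the AMP-activated kinase AMPK, was measured at 18.3 and 21.4 CPM in WT and at 26.0 and 25.6 CPM in Helz-null libraries (0.39 ± 0.070). RHEB, the GTPase that switches on mTORC1, stood at 149.8 and 157.5 CPM against 198.0 and 194.9 CPM (0.36 ± 0.032). BRAF, the kinase upstream of MEK and ERK, stood at 10.96 and 12.6 CPM against 15.1 and 14.6 CPM (0.34 ± 0.086). The groups did not overlap for any of these, and BRAF, the weakest of them, carried the widest error of the compared members. HIPK2, a nuclear kinase that phosphorylates p53, had a log2FC of 0.35, LMBR1, whose intron holds the limb enhancer of SHH, 0.32, and AGAP3, an Arf GTPase-activating protein, 0.28.

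The other 3 signalling genes were barely expressed. SHH, the secreted morphogen, gave 2 and 5 counts in WT and 8 and 9 in Helz-null libraries, which is between 0.032 and 0.19 CPM, where 3 counts correspond to 0.0435 to 0.0735 CPM. VIPR2, a receptor for vasoactive intestinal peptide, lay between 0.14 and 0.36 CPM with overlapping groups. PTPRN2, a phosphatase-like protein of secretory granules, stood at 0.557 and 0.902 CPM in WT and at 1.11 and 1.36 CPM in Helz-null libraries. The SHH and PTPRN2 groups did not overlap, but at these counts no size of change is given for SHH.

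Genes of ubiquitin conjugation and cell death were mixed, with 2 of 4 compared genes called up and a median log2FC of 0.15. CUL1, the scaffold of SCF ubiquitin ligases, rose from 177.7 and 169.0 CPM to 210.0 and 200.4 CPM (0.24 ± 0.032). NUB1, which directs NEDD8-conjugated proteins to the proteasome, had a log2FC of 0.19. UBE3C, a HECT-type ubiquitin ligase, had 270.0 and 275.5 CPM in WT and 295.6 and 288.2 CPM in Helz-null libraries (0.10 ± 0.029) and was not called, although its groups did not overlap. CASP2, the initiator protease caspase-2, was not called at 121.9 and 120.6 against 127.7 and 129.6 CPM (0.09 ± 0.033). The groups of CASP2 were separate too, though only narrowly. RNF32, a RING finger gene of testis, lay at 3.58 and 4.51 CPM in WT and 3.63 and 3.49 CPM in Helz-null libraries, which overlap.

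The 6 genes of RNA processing, the nuclear pore and chromosome maintenance split evenly, with 3 called up and 3 not. NUP205, a large scaffold protein of the pore's inner ring, rose from 358.0 and 363.5 CPM to 444.2 and 457.2 CPM (0.32 ± 0.028). NCAPG2, a subunit of condensin II, rose from 192.7 and 199.9 CPM to 258.8 and 248.1 CPM (0.37 ± 0.031). NOM1, a nucleolar protein, had a log2FC of 0.29. LUC7L2, a splicing factor associated with the U1 snRNP, was not called at 248.6 and 239.2 against 259.1 and 259.7 CPM (0.09 ± 0.030). Its groups were separate, but the deposited table also counts a readthrough gene, C7orf55-LUC7L2, with nearly the same values (237.4 and 228.4 against 245.6 and 245.1 CPM), so the same reads may be in both. RBM33 and XRCC2 are described below with the members off the shift.

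Of the cytoskeleton and cilia genes, 6 of 6 compared were called up by edgeR, with a median of 0.30, though TTC26 was not called by DESeq2, in thinned libraries, or without WT replicate 1 or Helz-null replicate 2, and ACTR3B was not called without Helz-null replicate 2. ZYX, which encodes the focal adhesion protein zyxin, had the largest log2FC of all compared members, 0.59 ± 0.032. It went from 123.8 and 124.9 CPM in WT to 187.1 and 186.2 CPM in Helz-null libraries. WDR60, an intermediate chain of the dynein that returns cargo along cilia, rose from 23.1 and 23.8 CPM to 31.6 and 30.02 CPM (0.39 ± 0.061). In both genes the replicates of a group differed by far less than the groups did. The actin-associated genes CALD1 and ACTR3B each had a log2FC of 0.30, TTC26, of the intraflagellar transport machinery, 0.21, and MTPN, which regulates actin capping, 0.21. AGBL3, a carboxypeptidase that trims glutamates from tubulin, was outside the compared genes at 1.32 and 0.854 CPM in WT and 0.871 and 1.22 CPM in Helz-null libraries. Its groups overlapped.

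Of the 8 genes of membranes, the ER and the Golgi, 6 were called up by edgeR, with a median of 0.25, though CHPF2 was not called by DESeq2, in thinned libraries, or without WT replicate 1 or Helz-null replicate 2. ESYT2, which tethers the ER to the plasma membrane, rose from 141.2 and 142.3 CPM to 183.1 and 183.7 CPM (0.37 ± 0.031). The ER oxidoreductase PDIA4 rose from 342.1 and 355.2 CPM to 435.9 and 450.6 CPM, a log2FC of 0.35, and WDR91, which acts on endosomes, by 0.36. The glycosyltransferase GALNT11 (0.31), the proton pump subunit gene ATP6V0E2 (0.20) and CHPF2, of chondroitin synthesis (0.17), were lower in the order. EXOC4, the exocyst subunit gene nearest to the centromere, was not called at 56.2 and 58.1 against 63.5 and 61.9 CPM (0.13 ± 0.043), although the groups did not overlap.

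The 4 mitochondrial genes were all called up by edgeR, with log2FC values between 0.19 and 0.28, though AGK was not called without Helz-null replicate 1. SSBP1, which coats single-stranded mitochondrial DNA, stood at 190.9 and 199.8 CPM in WT and at 233.0 and 240.5 CPM in Helz-null libraries, a log2FC of 0.28. ABCB8, a transporter of the inner membrane, had 0.28, FASTK, an RNA-binding protein, 0.23, and AGK, a lipid kinase that also serves protein import, 0.19. All 4 had separate groups.

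Among neuronal surface proteins, enzymes and the remaining genes, 3 of 4 compared members were called up. LRRC61, a leucine-rich repeat gene, had a log2FC of 0.35, the ATPase gene ABCF2 0.22, and AKR1B1, which encodes aldose reductase, 0.20 from 226.4 and 221.2 CPM to 253.9 and 259.2 CPM. DPP6, an accessory subunit of neuronal potassium channels, had 0 counts in all 4 libraries. This allows up to 0.0435 to 0.0735 CPM, or more if each mate of a pair was counted. TBXAS1, thromboxane synthase, stood at 2.07 and 2.54 CPM in WT and at 1.86 and 2.91 CPM in Helz-null libraries and overlapped between groups. FAM131B gave lower values in Helz-null libraries, at 1.26 and 1.39 CPM in WT and 0.774 and 0.947 CPM in Helz-null libraries. With 32 to 79 counts per library its direction is uncertain. FAM131B was the only one of the 56 genes whose Helz-null libraries both lay below both WT libraries, and it was not among the compared genes.

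A member was taken as off the common shift where its log2FC departed from the median of 0.28 by more than 3 standard errors and by at least 0.2, which 5 of the 48 did. CASP2, LUC7L2, UBE3C and EXOC4, with departures of -0.19, -0.19, -0.18 and -0.15, also lay more than 3 standard errors below. They were kept on the shift only by the limit of 0.2. Counted in their own standard errors, CASP2, LUC7L2 and UBE3C departed further than TMEM140 or CNTNAP2. MNX1 departed by 0.24 but by less than 3 of its standard errors. ZYX lay above. Below lay XRCC2, a gene of homologous recombination, TMEM140, a small membrane protein gene, RBM33, an RNA-binding protein gene, and CNTNAP2, a very long gene for a neuronal adhesion protein. XRCC2 had 53.4 and 47.5 CPM in WT and 50.6 and 47.1 CPM in Helz-null libraries (-0.06 ± 0.051). TMEM140 had 30.1 and 33.7 CPM against 32.9 and 31.3 CPM (0.010 ± 0.059). The sign of both depends on which library is left out. RBM33 had 87.1 and 82.9 CPM against 87.0 and 88.0 CPM (0.04 ± 0.038), and CNTNAP2 26.9 and 25.2 CPM against 26.7 and 27.6 CPM (0.06 ± 0.061). These were the 4 compared members whose groups overlapped, and in each of them the 2 WT replicates differed by more than the group means did.

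The members left behind did not lie together. The neighbours given here are the nearest compared genes, and weaker genes may lie between. XRCC2 (chr7:152341861-152373278) sat between LINC01003, with a log2FC of 0.70, and ACTR3B, with 0.30. RBM33 (chr7:155437145-155574179) sat between EN2 (0.38) and LMBR1 (0.32). CNTNAP2 (chr7:145813094-148118090) sat between TCAF1 (0.34) and CUL1 (0.24). Each of these neighbours was called up. TMEM140 (chr7:134832824-134850967) was flanked by C7orf49 (0.15) and WDR91 (0.36) and overlaps C7orf49, so its reads may be shared. ZYX (chr7:143078388-143088204), the highest compared member, had CASP2, at 0.09, and TCAF1 as its nearest compared genes. The weakly expressed FAM131B lies between CASP2 and ZYX.

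The borders of the raised stretch were compared with the genes just outside it. EXOC4 begins at chr7:132937829, and the nearest compared gene on the centromeric side, CHCHD3, had 155.6 and 147.4 CPM in WT and 147.0 and 147.8 CPM in Helz-null libraries (-0.04 ± 0.033). Continuing towards the centromere, PODXL (-0.24), MKLN1 (-0.17) and COPG2 (-0.53) were called down and CEP41 (-0.17) was not called. On the telomeric side of EXOC4 the next compared gene, SLC35B4, had 0.15 and was called up. In windows of 5 Mb counted from the start of EXOC4, the median over all compared genes, members or not, was -0.02 in the last window before EXOC4 (24 genes, 3 called up and 6 down) and 0.23 in the first window after it (14 genes, 12 up and 0 down). The following windows had medians of 0.20 (20 genes), 0.09 (5 genes), 0.28 (37 genes), 0.32 (9 genes) and 0.37 (3 genes), and in none of them was a gene called down. The window with 0.09 held CASP2, ZYX and CNTNAP2 among its 5 genes. The 3 genes of the last window, NCAPG2, ESYT2 and WDR60, are all members and lay between 0.37 and 0.39.

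**Figure D3:**
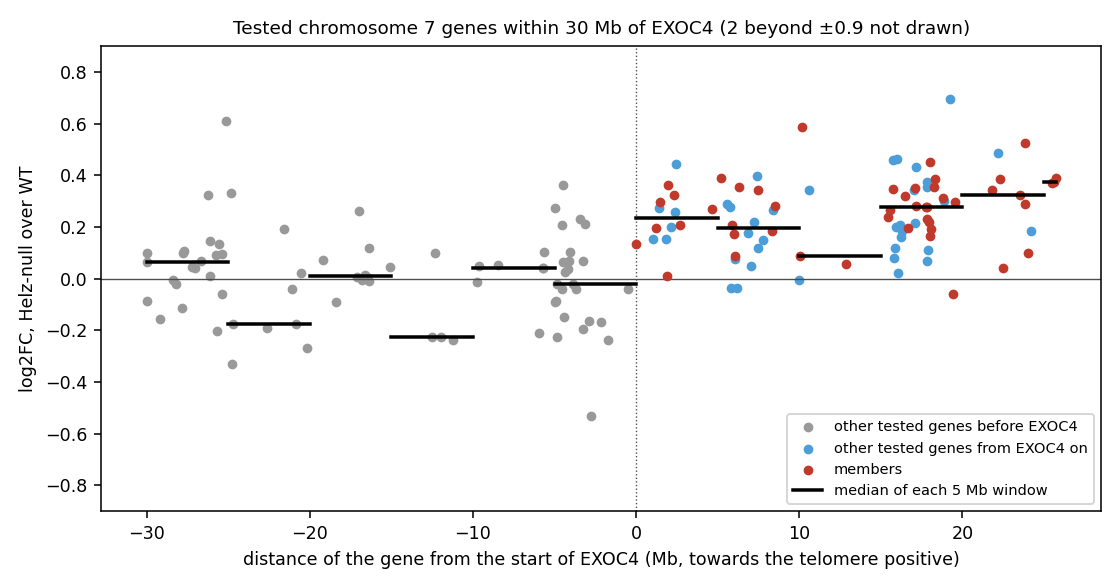
Helz-null over WT log2FC (y axis) of 164 compared chromosome 7 genes within 30 Mb of EXOC4 (2 more lie beyond ±0.9 and are not drawn) against the distance of the gene from the start of EXOC4 (x axis, Mb), with members in red, other genes beyond EXOC4 in blue, genes before it in grey and a bar at the median of each 5 Mb window. Window medians lie between -0.23 and 0.06 before EXOC4 and between 0.09 and 0.37 from EXOC4 on.

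The unlisted genes of the same stretch showed a like, somewhat smaller rise. Of 107 such genes with a count, 40 were compared, and their median log2FC was 0.20 (1.15-fold), with 24 called up and 0 down by edgeR, and 19 up and 0 down by DESeq2. None was lower at an unadjusted p under 0.05. Both Helz-null libraries were above both WT libraries in 34 and below them in 2. Over all compared genes 13.9% were called up and 15.5% down, and 34.9% lay above and 35.7% below in this way. The stretch was picked on this same contrast, so nothing is read from these counts or from the smaller median. The 40 genes include C7orf55-LUC7L2, which may hold the same reads as the member LUC7L2. The highest were LINC01003, a long non-coding RNA (6.45 and 5.81 CPM against 9.56 and 10.3 CPM, 0.70 ± 0.108), INSIG1, an ER protein that restrains sterol synthesis (191.9 and 194.7 against 265.5 and 275.9 CPM, 0.49 ± 0.030), and the zinc finger gene ZNF212 (0.46). The lowest were KLRG2 and ZC3HAV1, each at -0.04, and GSTK1 at -0.0034, none of them called. The rest of chromosome 7 had a median of -0.000057 over 444 compared genes, with 44 called up and 56 down.

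The 24 members nearer to the centromere had a median of 0.25 and the 24 nearer to the telomere 0.30. Across the 48 genes, Spearman's rho of the log2FC was 0.28 with position, -0.11 with WT level in FPKM and -0.11 with gene width, and these genes share libraries and are not independent. Members split into 3 equal groups by WT FPKM had medians of 0.30, 0.30 and 0.23 from low to high. Per length, the most abundant members in WT were AKR1B1 at 160.1 FPKM, SSBP1 at 145.9, PDIA4 at 118.1 and MTPN at 111.3, and the least abundant compared member was CNTNAP2 at 2.63 FPKM. Of the 56 genes, 7 were under 1 FPKM in WT. The 33 compared members that overlap no other counted gene had a median of 0.28, with 27 called up. The other 15 overlap a counted gene, and their reads may be shared with it.

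**Figure D4:**
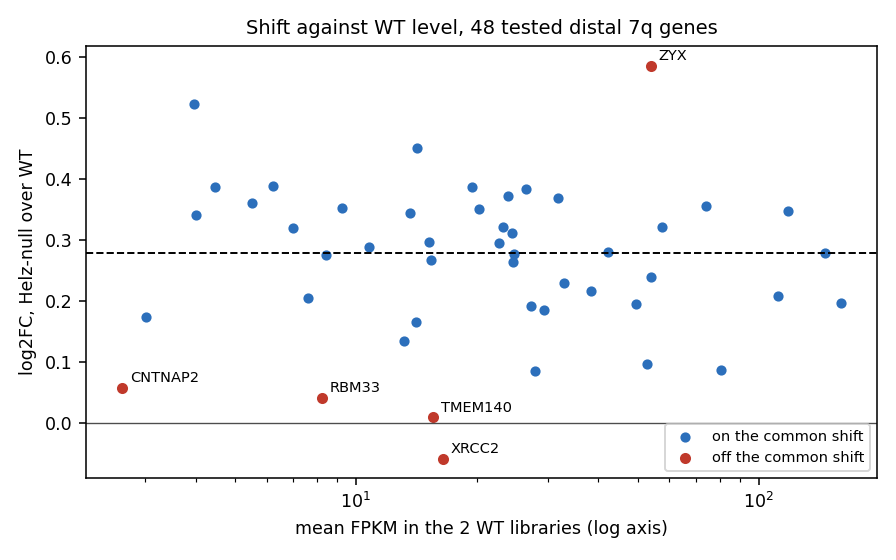
Helz-null over WT log2FC (y axis) of the 48 compared distal 7q genes against their mean level in the 2 WT libraries (x axis, FPKM, log axis). The dashed line is the median of 0.28 and red points are the 5 genes off the common shift, which lie at levels from 2.63 FPKM for CNTNAP2 to 53.9 FPKM for ZYX.

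Members work in complexes and pathways with proteins encoded elsewhere, and 10 members were set beside lists of such partners. The lists were chosen by function, but with earlier results of these data known, and some also hold paralogs of the member. Of 87 listed partners, none in the stretch beyond EXOC4, 82 were compared and 5 were not, among them RHEBL1, GLI1, HHIP and DISP1. The median log2FC of the 82 was 0.03, with a range from -0.54 to 0.38. Called up were 16 (8 by DESeq2) and called down 7, against 13.9% and 15.5% of all compared genes.

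For CUL1, NCAPG2, PRKAG2 and BRAF the median of the compared partners lay between -0.11 and 0.01. CUL1 had a log2FC of 0.24, while 13 listed genes of cullin ligases, among them SKP1 (0.02) and RBX1 (0.09), had a median of -0.01. There were 0 calls by edgeR or DESeq2, and 2 were higher and 1 lower at an unadjusted p under 0.05. This list also holds the other cullins CUL2, CUL3, CUL4A, CUL4B and CUL5, which are not partners of CUL1 itself. NCAPG2 had 0.37, while the other condensin II genes lay between -0.05 (SMC2) and 0.03 (SMC4), with 0 calls by either tool and 0 at an unadjusted p under 0.05. PRKAG2 had 0.39, while the other AMPK subunits had a median of -0.11, with 2 called down (PRKAA2 at -0.22 and PRKAB2 at -0.16), 0 up, and 0 higher at an unadjusted p under 0.05. By DESeq2, 1 AMPK subunit was called down and 0 up. BRAF had 0.34, whereas MAP2K1, the MEK1 kinase that BRAF phosphorylates, fell from 95.7 and 101.8 CPM to 73.4 and 77.4 CPM (-0.38 ± 0.039, adjusted p = 1.10e-10, edgeR). The median of the 11 RAF–MAPK partners was 0.01, with 2 called up and 2 down by edgeR, and 0 up and 2 down by DESeq2.

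For other members some partners moved the same way, though the partner medians were 0.03 for RHEB, 0.06 for EZH2 and 0.11 for NUP205. Of all compared genes 13.9% were called up. RHEB had 0.36, and of 7 compared mTORC1 partners 3 were called up, TSC2 from 148.8 and 140.7 CPM to 173.8 and 174.4 CPM (0.26 ± 0.033, adjusted p = 1.35e-08, edgeR), TBC1D7 (0.25 ± 0.061, adjusted p = 0.000862, edgeR) and MTOR (0.22), with 1 called down. DESeq2 called 2 of them up and 1 down. TSC2 and TBC1D7 encode parts of the complex that turns RHEB off, and MTOR encodes the kinase it turns on. In the same list TSC1 (0.009), RPTOR (0.03) and AKT1S1 (-0.01) were not called, and MLST8 (-0.15) was called down by edgeR. EZH2 had 0.26, and of its 10 PRC2 partners JARID2 (0.22) and RBBP4 (0.15) were called up, while the core subunits EED (0.06) and SUZ12 (-0.05) were not called. NUP205 had 0.32, and of 5 inner ring partners NUP93 (0.12) and NUP188 (0.13) were called up by edgeR, and 1 of the 5 by DESeq2. No PRC2 or inner ring partner was called down by edgeR or DESeq2, or was lower at an unadjusted p under 0.05. SMARCD3 had 0.45, and the median of 11 BAF partners was 0.05, with 3 called up and 1 down by edgeR, and 2 up and 1 down by DESeq2.

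EXOC4 and SHH stood apart from this comparison. EXOC4, at 0.13, was not called and lay inside the range of the other 8 exocyst subunits, whose median was 0.03. Among these EXOC8 fell from 70.9 and 71.0 CPM to 50.4 and 47.6 CPM (-0.54 ± 0.044, adjusted p = 3.53e-13, edgeR) and EXOC2 was called up by edgeR (54.5 and 48.8 against 58.5 and 58.7 CPM, 0.18) but not by DESeq2, which called 0 exocyst partners up. The 8 compared Hedgehog genes all had a log2FC above 0, with a median of 0.15 and 3 called up, the co-receptor gene BOC from 15.9 and 13.6 CPM to 18.5 and 20.1 CPM (0.38 ± 0.079, adjusted p = 0.000124, edgeR), GAS1 (0.17) and GLI3 (0.20), while the ligand gene SHH was near its limit of detection. DESeq2 called 1 of these 8 up, and none was lower at an unadjusted p under 0.05 or called down by either tool. Among listed Hedgehog genes that were not compared, HHIP, which encodes a Hedgehog-binding inhibitor, lay at 2.48 and 2.56 CPM in WT and at 0.678 and 1.00 CPM in Helz-null libraries. DISP1, which releases the ligand from cells, lay at 9.28 and 9.34 against 6.85 and 6.66 CPM. Both were thus lower in both Helz-null libraries, while GLI1 overlapped between groups. No test of the difference between a member and its partners was made. Whether partners share a shift with genes near them was not tested either. EXOC8 lies at chr1:231468499-231473598 and MAP2K1 at chr15:66679175-66783994.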

How the data were processed

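RNA-Seq counts per gene were deposited by the authors without normalization for 2 WT and 2 Helz-null libraries. Per the study's methods, total RNA was prepared with the TruSeq kit and sequenced in paired-end mode, reads of ribosomal RNA were removed with Bowtie2, the rest were mapped to hg19 with TopHat2, and genes were counted with QuasR. Versions, gene annotation, use of strand and the counting of mates are not given in the sources used here, so overlapping genes are uncertain. Library totals exceed the mapped reads that the methods report, so each mate of a pair may have been counted. The deposited gene width gave FPKM. The authors' comparison table holds p-values, FDR values and, on a log2 scale, fold changes and CPM of their own, of which none was used. Its list of 10978 genes, selected by the authors at an FPKM above 2, set which genes were tested, because the selection could not be repeated from the counts.

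All 4 libraries were fitted together with edgeR 4.0.16 (R 4.3.3, with limma 3.58.1 loaded), using TMM factors, glmQLFit and glmQLFTest on genotype alone, and genes were called at a Benjamini-Hochberg FDR under 0.005. Log2 ratios between libraries were taken on normalized CPM without a prior count. The correlation of deviations used a prior count of 2. Alternatives were DESeq2 1.42.0, other scalings, gene filters, thinned libraries, a replicate block and leaving out each library. Positions came from GENCODE 44 on GRCh37, where the symbol found 10379 tested genes, older names found 522 and 77 stayed unmatched. Python 3.11.15 and matplotlib 3.10.9 were used for sequences and figures. Limits from a count of 0 are 3 counts, taken as independent, and cover counting error only. If each mate was counted, these limits are too low.

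The members, partner lists and roles were chosen with earlier results of these data known. Values in every library were to be given for the 8 compared members with the largest log2FC and the compared members not called up. They were also to be given for the lowest 5 compared members, the members not compared and the 10 with a partner list. SSBP1, PDIA4, AKR1B1, C7orf55-LUC7L2, TCAF1, C7orf49, SLC35B4, the markers and the partners named beyond the 3 highest and 3 lowest called ones were added after their values were seen. Some partner genes are not reported here.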

Additional observations from a re-analysis of the deposited data

How the results depend on the processing

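The members' median log2FC of 0.28 kept its sign in all 15 alternatives. It lay between 0.27 and 0.28 when single libraries were left out, and moved to 0.31 when libraries were scaled by total count only, under which the median of all genes was 0.032 and 61.5% of calls (2109 up, 1318 down) were up, against 47.3% (1524 up, 1701 down). Members called up numbered 36 to 41 without single libraries, with 0 down, 36 with DESeq2 and 44 with total counts. TMM on genes outside chromosome 7 gave 1554 up and 1680 down over all genes. Leaving out single libraries gave 1027 to 1544 genes up and 1180 to 1659 down, unlisted genes of the stretch 18 to 23 up and 0 down, partners 7 to 17 up and 4 to 6 down, and HELZ -1.47 to -1.41. Without Helz-null replicate 1, 7 partners were called up, and without Helz-null replicate 2, 8 up and 4 down. DESeq2 called 8 partners up, against 16. Among unlisted genes, 2 were called down with filterByExpr or with all genes that had a count, and 1 with FPKM above 2 in every library; these filters test more or other genes. Without single libraries TMEM140 ranged from -0.077 to 0.088 (below 0 without WT replicate 1 and, at -0.024, without Helz-null replicate 1) and XRCC2 from -0.13 to 0.034 (above 0 without WT replicate 1). BRAF, TTC26, UBN2, AGK, CHPF2 and ACTR3B lost their call in at least 1 alternative, and EXOC4, LUC7L2, CASP2 and UBE3C gained one. The cause of these moves was not tested. With the replicate number as a block, 41 members and 1677 genes were called up and 1841 down. Same-numbered libraries shared little (correlation of deviations 0.034, 2 pairs), so the block is not taken as a pairing. With 2 libraries a group, changes of members under about 1 FPKM are uncertain. The level below which changes cannot be resolved was not tested.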
